A study of Arabidopsis thaliana with 7 samples.

Results

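The genes described here are 10 members of the B-box (BBX) zinc finger family of Arabidopsis thaliana: COL1, COL2, COL5, BBX16, BBX18, BBX19, BBX22, BBX24, BBX25 and BBX32. They were picked by locus identifier from the 21184 genes of the deposited table, and the difference between tt4-11 and Col-0 seedlings was part of what picked them. That difference is therefore given for these 10 genes as a description, with no test. Polyadenylated RNA was sequenced from whole seedlings of tt4-11, which the labels call a chalcone synthase null line (3 libraries, replicates 2 to 4, of the 4 the labels mention), and of the wild type Col-0 (4 libraries, replicates 1 to 4). Both groups were 5 days past germination, at 22 °C in light for 24 hours a day at about 100 µE, on medium with 2% sucrose. tt4-11 is a single mutant line in the data, and each library came from whole seedlings pooled by weight. Nothing in the labels tells if replicates grew in different dishes. A p-value here is therefore set against the variation among 7 libraries, which may be technical.

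B-box proteins carry zinc-binding B-box domains near the amino terminus, which bind other proteins and help to place transcription factors on DNA. Groups I and II have paired B-boxes and a CCT domain, group III has a single B-box and a CCT domain, group IV has paired B-boxes alone and group V a single B-box alone. The founding member, CONSTANS (CO), activates flowering in long days. Several group IV proteins set the response of young seedlings to light together with the transcription factor HY5, some as helpers and some as brakes, and the ubiquitin ligase COP1 marks many of them for destruction. HY5 also activates flavonoid genes, chalcone synthase among them, and many B-box transcripts follow a daily rhythm.

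The reads behind the table numbered 2150718 to 2175787 a library in tt4-11 and 2021368 to 2205449 in Col-0. TT4, the gene of chalcone synthase, averaged 69.9 ± 23.3 scaled reads in tt4-11 (SD, n = 3) and 2797 ± 330 in Col-0 (SD, n = 4). tt4-11 thus held 2.50% of the Col-0 level. Scaled reads are read counts per gene that the authors divided by a size factor for each library. Col-0 replicate 1 stood apart from the other libraries, at 26.1 on a second principal component (14.5% of the variance) where the others lay between -23.3 and 13.5. On the first component (44.7% of the variance) it lay at 43.4, furthest from tt4-11. The other Col-0 libraries lay there at 10.4 to 18.2 and the tt4-11 libraries at -33.5 to -26.05. Without Col-0 replicate 1 the differences of the 7 B-box genes that could be fitted ran from 0.66 to 2.12 on the log2 scale, against 0.71 to 2.04 with all libraries. Levels went with the number of annotated transcripts: genes with 1 annotated transcript had a median of 37.5 scaled reads, those with 2 had 14.1 and those with 3 or more 6.16, in 11610, 5141 and 4168 genes.

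The upstream sequences of 3 of the 10 genes are shown because a clock-related motif was searched in them. COL2 and BBX24 are the genes with a match near the start, and BBX16, with the second largest difference, is shown as a gene without one. Each is read 5′ to 3′ on the gene's strand from the TAIR10.1 build, with the motif in capitals. COL2 is cut to the bases outside neighbouring annotated genes (chr3:489475-489669, minus strand, 202 to 8 bases before the gene start); BBX16 (chr1:27778734-27778983, plus strand) and BBX24 (chr1:1829984-1830233, minus strand) show the 250 bases before the start.
COL2: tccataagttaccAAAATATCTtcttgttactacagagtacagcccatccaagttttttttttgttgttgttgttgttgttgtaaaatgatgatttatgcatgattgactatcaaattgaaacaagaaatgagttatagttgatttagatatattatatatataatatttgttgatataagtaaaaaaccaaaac
BBX16: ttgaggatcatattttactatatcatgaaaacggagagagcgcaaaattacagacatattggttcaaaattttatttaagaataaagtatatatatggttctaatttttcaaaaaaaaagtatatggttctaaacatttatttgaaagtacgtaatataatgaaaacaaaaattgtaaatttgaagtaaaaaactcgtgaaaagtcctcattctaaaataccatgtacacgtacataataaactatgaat
BBX24: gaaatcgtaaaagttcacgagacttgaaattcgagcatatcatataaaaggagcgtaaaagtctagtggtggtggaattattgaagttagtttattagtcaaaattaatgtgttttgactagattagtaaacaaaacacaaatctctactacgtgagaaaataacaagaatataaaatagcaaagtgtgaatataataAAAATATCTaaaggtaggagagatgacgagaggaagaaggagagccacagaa

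The capitals mark the evening element, AAAATATCT, a motif bound by the clock proteins CCA1, LHY and RVE8. Searched on both strands, it lay at -189 to -181 from the gene start in COL2 and at -52 to -44 in BBX24. Within 250 bases it was found in 2 of the 10 genes, and in 2.36% of the 27443 annotated protein-coding genes. Within 1000 bases it was found in 3 of the 10, with BBX22 added, and in 7.24% of all. The related CCA1-binding site, AAAAATCT, was found within 1000 bases in COL5, BBX22 and BBX24 (3 of 10, against 21.2% of all). The G-box, CACGTG, a motif that HY5 can bind, was found within 1000 bases in BBX18 and BBX19 (2 of 10, against 14.8% of all). No match of one motif overlapped a match of another in these 10 genes, and a match is only a description of the letters.

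**Figure D1:**
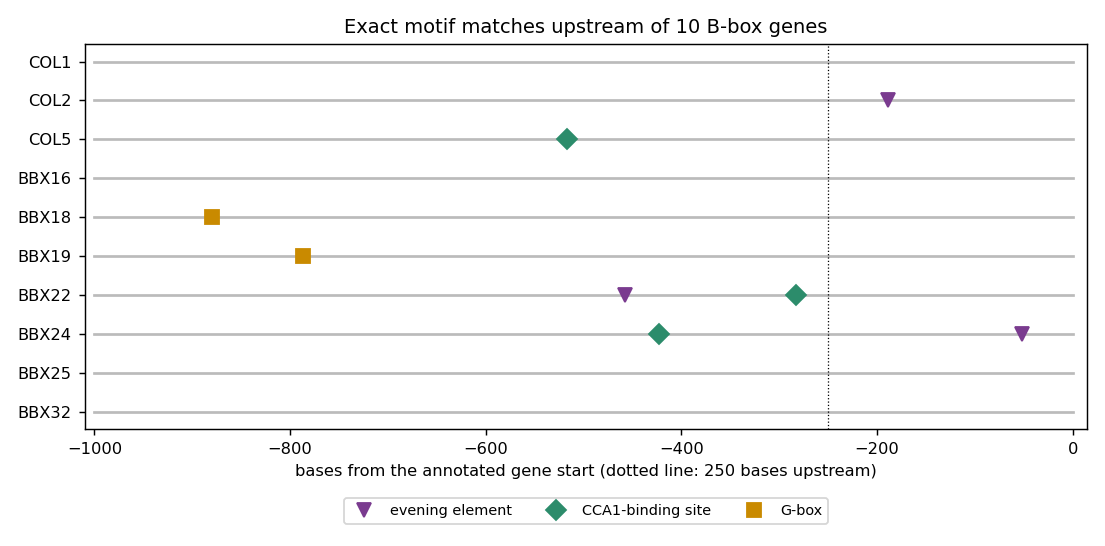
Exact matches of 3 motifs on either strand in the 1000 bases before the annotated start of each of the 10 genes; the x axis is the distance from the start in bases and the dotted line marks 250 bases. Evening elements lie inside the 250 bases in COL2 and BBX24 alone, and 4 of the genes (COL1, BBX16, BBX25 and BBX32) hold no match.

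Of the 10 genes, 7 passed the filter on low values (COL1, COL2, COL5, BBX16, BBX18, BBX25 and BBX32), and each had more scaled reads in every tt4-11 library than in any Col-0 library. The share of all 13301 genes tested that lay apart in this way was 13.7%. All 7 were also past an adjusted p of 0.05 upward in the fit to all genes, as were 7.07% of the genes tested. Their higher values helped to choose them, so nothing is read from either count. BBX19, BBX22 and BBX24 held too few reads for the fit. In whole seedlings, a difference in RNA per cell and a difference in the number of cells of a type cannot be told apart.

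Markers of the parts of a seedling were summed in each library. The 6 shoot markers (photosynthesis genes) summed to 18839 to 22630 scaled reads in tt4-11 and 22929 to 25687 in Col-0, so the groups lay narrowly apart. The largest part of the shoot sum was LHCB1.3, with means of 7188 in tt4-11 and 8359 in Col-0, and its groups overlapped. The 6 root markers summed to 9700 to 12732 in tt4-11 and 11901 to 13118 in Col-0, and these sums overlapped. Most of that sum was PYK10, with means of 11346 in tt4-11 and 12364 in Col-0. The log2 differences (tt4-11 minus Col-0) of the 5 root markers tested were all negative, from -0.98 to -0.13. For 3 of these 5 the groups did not overlap, with tt4-11 the lower, beside 12.9% of all genes tested. The 6 markers of seed storage summed to 106 to 630 in tt4-11 and 31.0 to 215 in Col-0, and these sums overlapped. Called higher were 1 of 6 shoot markers (LHCB3) and 3 of 4 seed markers tested, beside 7.07% of all genes tested. Called lower were 3 of 6 shoot and 1 of 5 root markers tested, beside 6.55% of all genes tested. No marker was at 0 in all libraries. The part of tissue makeup in the B-box values was not tested.

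**Figure D2:**
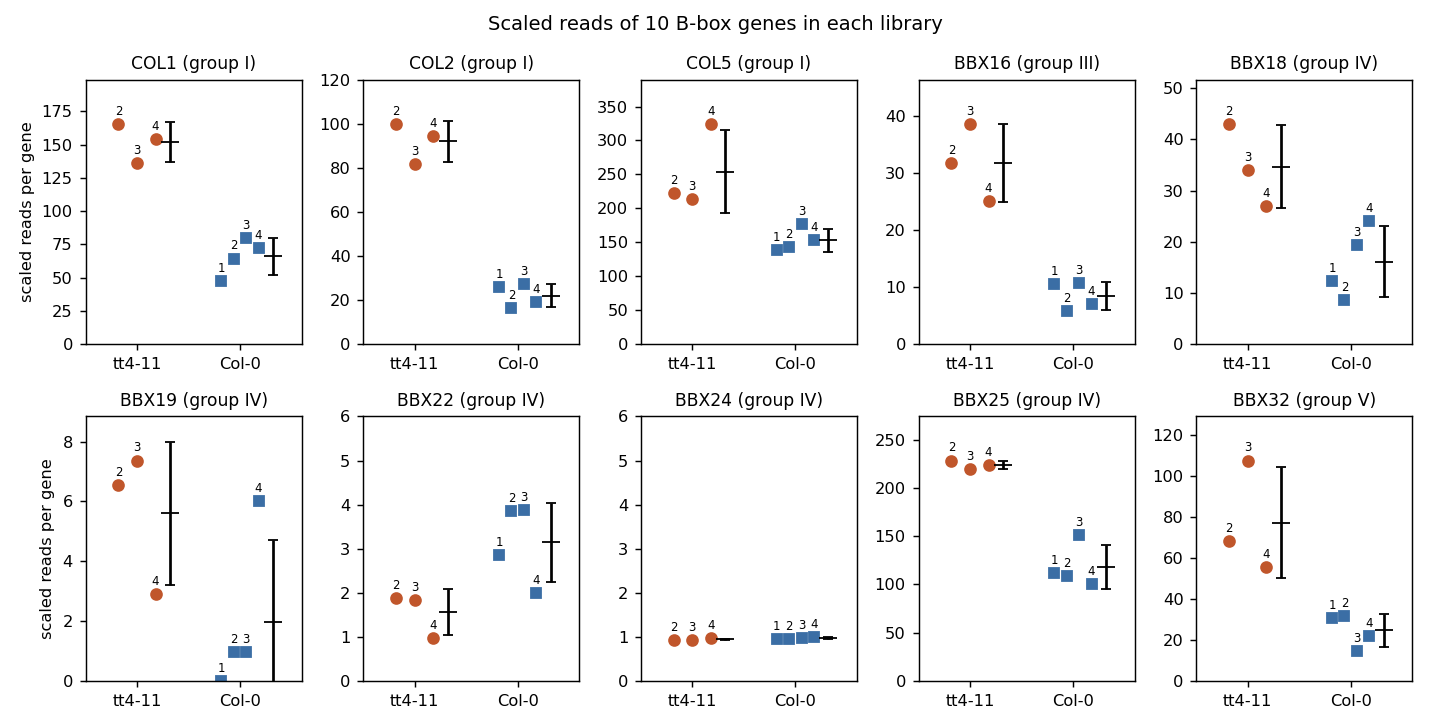
Scaled reads of each of the 10 genes (y axis, linear from 0, a scale for each gene) in 3 tt4-11 libraries (circles) and 4 Col-0 libraries (squares), numbered by replicate; the bar beside each group is the mean ± SD, cut at 0 for BBX19 in Col-0. In 7 panels the tt4-11 points lie above all Col-0 points, while BBX19, BBX22 and BBX24 stay under 8 scaled reads in all 7 libraries.

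Among the CO-like genes of group I, COL2 had the largest difference of all. COL1 and COL2 are the nearest relatives of CO, and their transcripts are known to peak around dawn. COL2 (AT3G02380, chromosome 3, 487069 to 489467, minus strand, 2 exons) had 100, 81.9 and 94.4 scaled reads in tt4-11 replicates 2 to 4, against 25.8, 16.3, 27.2 and 19 in Col-0 replicates 1 to 4. The groups were far apart and the libraries within each were close together, with a coefficient of variation of 10.1% in tt4-11 and 23.7% in Col-0. The means were 92.1 ± 9.30 in tt4-11 (SD, n = 3) and 22.1 ± 5.23 in Col-0 (SD, n = 4), a ratio of 4.17 and a log2 difference of 2.04 (SE 0.21). Differences here and below are tt4-11 minus Col-0 of log2(scaled reads + 1), a scale that shrinks differences where reads are few.

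COL1 (AT5G15850, chromosome 5, 5176091 to 5177897, minus strand, 2 exons) had 166, 136 and 154 scaled reads in tt4-11, against 47.8, 64.4, 79.6 and 72 in Col-0. Every tt4-11 library lay well above the highest Col-0 library, replicate 3. The means were 152 ± 14.8 in tt4-11 and 65.9 ± 13.6 in Col-0 (SD, n = 3 and 4), a ratio of 2.31 and a log2 difference of 1.21 (SE 0.17). COL1 lies wholly inside AT5G15845, a long non-coding RNA gene on the other strand that overlaps it by 1807 bases. That gene had 10.3, 12.0 and 8.67 scaled reads in tt4-11, against 7.64, 6.73, 5.82 and 9 in Col-0. The library kit kept the strand, but the strand setting of the count step is not given in the sources used here, so reads of the pair may not be fully separated. CO itself, which lies downstream of COL1 on the same strand, had a scaled value of 1.87 in tt4-11 replicate 2 and of 0.97 in Col-0 replicate 3, and 0 reads in the other 5 libraries.

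COL5 (AT5G57660, chromosome 5, 23355337 to 23356989, plus strand, 2 exons), which can promote flowering when overproduced, had 223, 215 and 325 scaled reads in tt4-11, against 139, 143, 177 and 153 in Col-0. Replicate 4 was the high library in tt4-11 and replicate 3 in Col-0. The means were 254 ± 61.3 in tt4-11 and 153 ± 17.0 in Col-0 (SD, n = 3 and 4). The log2 difference was 0.71 (SE 0.15), the smallest of the 7, and it was 0.52 without tt4-11 replicate 4. In coding sequence COL1 and COL2 shared 71.2% of aligned positions, gaps counted, and COL5 shared 54.7% with COL2 and 53.5% with COL1. COL2 overlaps AT3G02370 by 771 bases and AT3G02390 by 688 bases, both on the other strand, and these had 3.78 ± 1.96 and 4.67 ± 2.38 scaled reads in tt4-11, against 1.45 ± 0.95 and 3.65 ± 1.85 in Col-0 (SD, n = 3 and 4). No 100-base stretch of the longest transcript of any of the 10 genes occurred elsewhere on the 5 chromosomes, so single reads of that length could be placed.

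BBX16 of group III, also called COL7 and known from shoot branching and the response to shade, had the second largest difference. BBX16 (AT1G73870, chromosome 1, 27778984 to 27780809, plus strand, 2 exons) had 31.8, 38.7 and 25.04 scaled reads in tt4-11, against 10.5, 5.77, 10.7 and 7 in Col-0. The lowest tt4-11 library held more than 2 times the highest Col-0 library. The means were 31.8 ± 6.81 in tt4-11 and 8.49 ± 2.48 in Col-0 (SD, n = 3 and 4), a ratio of 3.75 and a log2 difference of 1.81 (SE 0.30).

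In group IV, BBX25 was abundant and even. BBX25 and its close relative BBX24 (73.8% of coding positions shared) are known as brakes on seedling light responses that bind HY5 and COP1. BBX25 (AT2G31380, chromosome 2, 13381767 to 13383470, plus strand, 3 exons) had 228, 219 and 223 scaled reads in tt4-11, against 112, 109, 151 and 100 in Col-0. The tt4-11 libraries hardly varied (coefficient of variation 2.06%), and in Col-0 (19.4%) replicate 3 was high. The means were 224 ± 4.61 in tt4-11 and 118 ± 22.8 in Col-0 (SD, n = 3 and 4), with a log2 difference of 0.94 (SE 0.14). BBX25 overlaps AT2G31390 on the other strand by 48 bases, and that gene had 685 ± 71.6 scaled reads in tt4-11 and 595 ± 37.9 in Col-0 (SD, n = 3 and 4).

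BBX18 and BBX19 are a related pair that can favour elongation of the seedling stem or delay flowering. BBX18 (AT2G21320, chromosome 2, 9126263 to 9127987, plus strand, 5 exons) had 43.0, 34.1 and 27.0 scaled reads in tt4-11, against 12.4, 8.65, 19.4 and 24 in Col-0. The groups came close, since tt4-11 replicate 4 exceeded Col-0 replicate 4 only narrowly. The means were 34.7 ± 8.06 in tt4-11 and 16.1 ± 6.89 in Col-0 (SD, n = 3 and 4), with a log2 difference of 1.13 (SE 0.31), the largest standard error of the 7. BBX19 (AT4G38960, chromosome 4, 18160903 to 18163341, plus strand, 6 annotated transcripts) had 7, 8 and 3 reads in tt4-11, against 0, 1, 1 and 6 in Col-0. The groups overlapped through Col-0 replicate 4, and the reads summed to 18 in tt4-11 (95% Poisson interval 10.7 to 28.4) and to 8 in Col-0 (3.45 to 15.8). These intervals, and those below, cover counting error alone.

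BBX22 and BBX24 were barely counted, so the data do not bear on them. BBX22, a helper of HY5 in seedling greening and anthocyanin formation, lies on chromosome 1 (AT1G78600, 29566863 to 29568931, plus strand, 2 annotated transcripts). It had 2, 2 and 1 reads in tt4-11, against 3, 4, 4 and 2 in Col-0, which sum to 5 (1.62 to 11.7) and 13 (6.92 to 22.2). The scaled values do not overlap (1.87 at most in tt4-11, 2 at least in Col-0), yet the whole reads do, both reaching 2. BBX24 (AT1G06040, chromosome 1, 1828340 to 1829983, minus strand, 2 annotated transcripts) had exactly 1 read in each of the 7 libraries, 3 in tt4-11 (0.62 to 8.77) and 4 in Col-0 (1.09 to 10.2). Its overlap of 344 bases with AT1G06045 on the other strand is not analysed here. BBX19, BBX22 and BBX24 are the 3 of the 10 genes with more than 1 annotated transcript. A difference in any of them was not tested, since they held too few reads for the fit with the filter. Whether the number of annotated transcripts has a part in the low counts was not tested either.

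BBX32 of group V, known as a brake on light signalling that binds BBX21, was the most variable of the well-counted genes in tt4-11. BBX32 (AT3G21150, chromosome 3, 7412445 to 7413727, minus strand, 1 exon) had 68.3, 108 and 55.9 scaled reads in tt4-11, against 30.6, 31.7, 14.6 and 22 in Col-0. Replicate 3 was the high library in tt4-11 and the low one in Col-0. The means were 77.3 ± 27.1 in tt4-11 and 24.7 ± 8.04 in Col-0 (SD, n = 3 and 4), a ratio of 3.13 and a log2 difference of 1.61 (SE 0.27). It overlaps AT3G21140 on the same strand by 13 bases, and that gene had 79.5 ± 0.82 scaled reads in tt4-11 and 74.1 ± 7.29 in Col-0 (SD, n = 3 and 4).

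The library that was highest differed from gene to gene. Among the 7 well-counted genes, tt4-11 replicate 2 was the highest of its group in 4, replicate 3 in 2 and replicate 4 in 1. In Col-0, replicate 3 was the highest in 5. The authors' deposited table, whose fold changes are for single transcript models, gives log2 values for these 7 genes between 0.67 (COL5) and 1.71 (COL2), all higher in tt4-11. Each of these genes has 1 model there. The deposited values are all smaller than those fitted here, which ran from 0.71 to 2.04, and why they differ was not tested.

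Levels can be set side by side per length of the longest transcript, in scaled reads per kb. In tt4-11 BBX25 stood at 176 ± 3.63, COL5 at 162 ± 39.2, COL1 at 89.5 ± 8.71, BBX32 at 60.2 ± 21.1, COL2 at 40.8 ± 4.12, BBX18 at 31.7 ± 7.37 and BBX16 at 18.8 ± 4.02 (SD, n = 3). In Col-0 COL5 stood at 97.7 ± 10.8, BBX25 at 93.0 ± 18.02, COL1 at 38.8 ± 8.01, BBX32 at 19.3 ± 6.27, BBX18 at 14.7 ± 6.30, COL2 at 9.79 ± 2.32 and BBX16 at 5.00 ± 1.46 (SD, n = 4). Libraries of BBX25 and COL5 overlapped in both groups, as did those of BBX18 with its neighbour COL2. COL1 stood below this leading pair and BBX16 below the others, without overlap, in both groups. COL2 changed places with BBX18 between the groups, but neither order exceeds the spread of the libraries. BBX19, BBX22 and BBX24, at 0.675 to 3.27 per kb in both groups, are not set against the rest, since genes with several annotated transcripts had lower medians throughout the table.

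**Figure D3:**
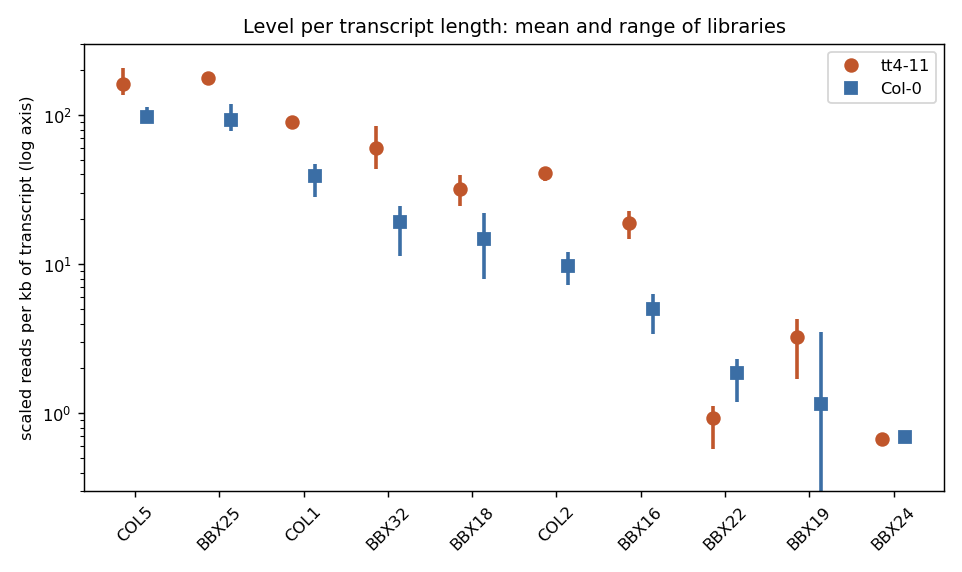
Scaled reads per kb of the longest annotated transcript (log axis) for the 10 genes, in order of their Col-0 mean; symbols are means and lines run from the lowest to the highest library of tt4-11 (circles, n = 3) and Col-0 (squares, n = 4). The Col-0 line of BBX19 reaches 0 and is cut at the axis, and the line of a gene such as BBX25 in tt4-11 is hidden by its symbol.

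The other 22 genes of the family were taken whole as a list, and none of those tested was called higher in tt4-11. They are the rest of the family after the genes above were picked, with higher tt4-11 values known. The lack of upward calls and the median among them were therefore partly fixed by that pick, and nothing is read from either. Of them 17 are listed in the deposited data, 5 (COL9, COL11, COL12, BBX23 and BBX26) are not analysed here, and 11 passed the filter on low values. Of these 11, 2 fell and 9 did not pass, beside 6.55% of all genes tested that fell (adjusted p under 0.05; limma, Benjamini-Hochberg over 13301 genes, two-sided). With an unadjusted p under 0.05, 1 was higher and 2 lower; edgeR called 0 higher and 2 lower, and DESeq2 0 higher and 1 lower. Their median log2 difference was -0.08, and that of all genes tested was -0.01. Among the 11, 3 values were positive and 8 negative, from -0.89 to 0.63.

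The 2 that fell are the group II genes tested, and group II has no member among the 10 genes. COL10, a CCT-domain protein of the family, had 41.2, 46.0 and 45.3 scaled reads in tt4-11, against 87.9, 85.5, 90.3 and 69 in Col-0. The groups lay apart, with means of 44.2 ± 2.61 and 83.2 ± 9.64 (SD, n = 3 and 4), and COL10 fell by 0.89 on the log2 scale (SE 0.16; adjusted p = 0.00186). COL15 had 31.8, 37.7 and 33.7 scaled reads in tt4-11, against 50.6, 46.1, 61.1 and 53 in Col-0. It fell by 0.60 (SE 0.18; adjusted p = 0.0361), but this call was lost without tt4-11 replicate 2, 3 or 4 or Col-0 replicate 3 or 4 (adjusted p up to 0.113), with DESeq2 (0.0984) and with no filter (0.0521).

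The near relatives of the 10 genes that were left in this list did not pass the test, which the pick of the 10 genes partly fixed. COL3 and COL4, of group I like COL1, COL2 and COL5, gave -0.08 each (453 ± 19.5 scaled reads in tt4-11 and 484 ± 87.3 in Col-0 for COL4; SD, n = 3 and 4). In group III, BBX15 gave -0.28 (adjusted p = 0.274) and BBX14 -0.08. In group IV, BBX21, an activator of HY5 and of anthocyanin genes, gave -0.17 (SE 0.13; adjusted p = 0.405), and BBX20, a HY5 partner in brassinosteroid responses, gave -0.58 (SE 0.31; adjusted p = 0.229). BBX20 stood at 12.2, 7.37 and 10.6 scaled reads in tt4-11, against 20.1, 16.3, 12.6 and 13 in Col-0, low counts whose groups lay narrowly apart.

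In group V, BBX28, a protein that keeps HY5 from DNA, had 59.9, 59.8 and 68.4 scaled reads in tt4-11, against 62.1, 35.6, 33.0 and 35 in Col-0. Col-0 replicate 1 alone overlapped tt4-11. The log2 difference was 0.63 (SE 0.21) and did not pass (adjusted p = 0.0593, limma). Without Col-0 replicate 1 BBX28 gave 0.84 and passed (adjusted p = 0.00462). The other group V genes tested, BBX27 and BBX30, gave 0.24 (SE 0.32) and 0.57 (SE 0.48).

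**Figure D4:**
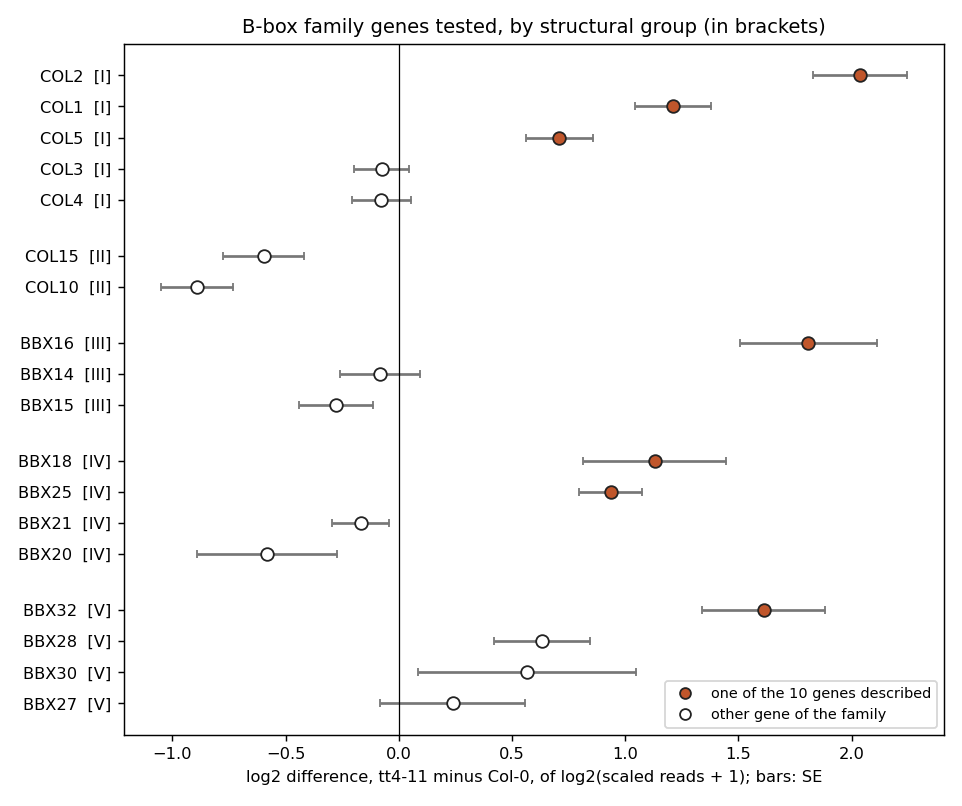
Log2 difference, tt4-11 minus Col-0, of log2(scaled reads + 1), with its SE, for the 18 family genes that passed the filter, sorted within structural groups I to V (in brackets); filled points are 7 of the 10 genes described, which were chosen with these values known, and open points the other 11. The filled points lie between 0.71 and 2.04, and the open points between -0.89 and 0.63, with COL15 and COL10 of group II furthest below 0 beside BBX20.

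In the HY5 and COP1 module, with which B-box proteins work, 2 partners of COP1 rose while HY5 and COP1 did not pass. Of 12 genes tested, 2 rose and 10 did not pass (limma with Benjamini-Hochberg adjustment), with a median of 0.19, beside 7.07% of all genes tested that rose. SPA1 and SPA3 encode partners of COP1 that help it to mark its targets. SPA1 had 610, 568 and 612 scaled reads in tt4-11, against 291, 367, 387 and 409 in Col-0, and rose by 0.72 (SE 0.12; adjusted p = 0.00103). SPA3 had 364, 330 and 359 in tt4-11, against 232, 241, 246 and 253 in Col-0, and rose by 0.53 (SE 0.10; adjusted p = 0.00354). The groups of both genes lay apart, and both calls held under all alternatives run. With the length trend removed the rises were smaller, at 0.51 for SPA1 and 0.36 for SPA3 (adjusted p = 0.00963 and 0.0339, limma). HY5 had 57.8 ± 13.2 scaled reads in tt4-11 and 51.2 ± 3.39 in Col-0 (SD, n = 3 and 4; log2 difference 0.15, adjusted p = 0.635). COP1 gave 0.40 (adjusted p = 0.0818), SPA2, a relative of SPA1, 0.30 and the UV-B receptor gene UVR8 -0.32 (adjusted p = 0.0653), none of which passed.

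Among 4 photoreceptor and PIF genes tested, 1 rose and 3 did not pass, beside 7.07% of all genes tested that rose. It was CRY1, a blue-light receptor gene, with 526, 530 and 653 scaled reads in tt4-11, against 491, 433, 442 and 435 in Col-0. It rose by 0.33 (SE 0.11; adjusted p = 0.0494), barely under the threshold. Of the 7 libraries, Col-0 replicate 1 was the only one that could be left out with the call kept (0.0224); leaving out another gave an adjusted p of 0.0718 to 0.252. The call was lost as well at a pseudocount of 0.1 (0.0508), without the filter (0.0707) and after removal of the length trend (0.215).

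In the photoperiod pathway around CO, 6 genes were tested: 1 was called higher, 2 lower and 3 neither, beside 7.07% of all genes tested called higher and 6.55% lower. FKF1 and GI form a light-dependent pair that removes the CDF repressors of CO. FKF1 had 11.2, 19.3 and 12.5 scaled reads in tt4-11, against 65.0, 69.2, 53.4 and 57 in Col-0, and fell by 2.04 on the log2 scale (SE 0.22; adjusted p = 2.36e-05). GI had 60.8, 40.5 and 47.2 in tt4-11, against 111, 121, 101 and 108 in Col-0, and fell by 1.16 (SE 0.16; adjusted p = 0.000268). The groups of both lay far apart. CDF5, one of those repressors, had 20.6, 18.4 and 24.1 in tt4-11, against 8.60, 6.73, 7.76 and 11 in Col-0, and rose by 1.22 (SE 0.30; adjusted p = 0.0140). That call was lost without tt4-11 replicate 2 (0.0541) or 4 (0.0825), and DESeq2 gave CDF5 no adjusted p.

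Among clock genes 9 were tested, with 3 called higher, 4 lower and 2 neither, beside the same 7.07% and 6.55% of all genes tested. The 3 that rose belong to the morning: CCA1 by 2.35 (SE 0.16; adjusted p = 3.63e-07), LNK2 by 1.62 (SE 0.28; adjusted p = 0.00141) and RVE8 by 1.23 (SE 0.21; adjusted p = 0.00128). ELF4, an evening gene, fell by 1.25 (SE 0.15; adjusted p = 5.04e-05). LNK2 was highest among the Col-0 libraries in replicate 1, at 31.5 scaled reads against 15.4 to 17 in the others. The 4 calls held under all alternatives run. Whether the difference between the groups in clock genes bears on the B-box genes was not tested. Within tt4-11, CCA1 varied little (coefficient of variation 5.46%) and was highest in replicate 3 (209.9 scaled reads, against 192 and 191 in replicates 2 and 4). Of the 7 well-counted B-box genes, 4 were lowest of their group in that library (COL1, COL2, COL5 and BBX25) and 2 were highest. With 3 tt4-11 libraries 1 of them must be the lowest for each gene. The share over all genes is not given here, so nothing is read from these counts. Whether CCA1 and these genes vary together was not tested.

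**Figure D5:**
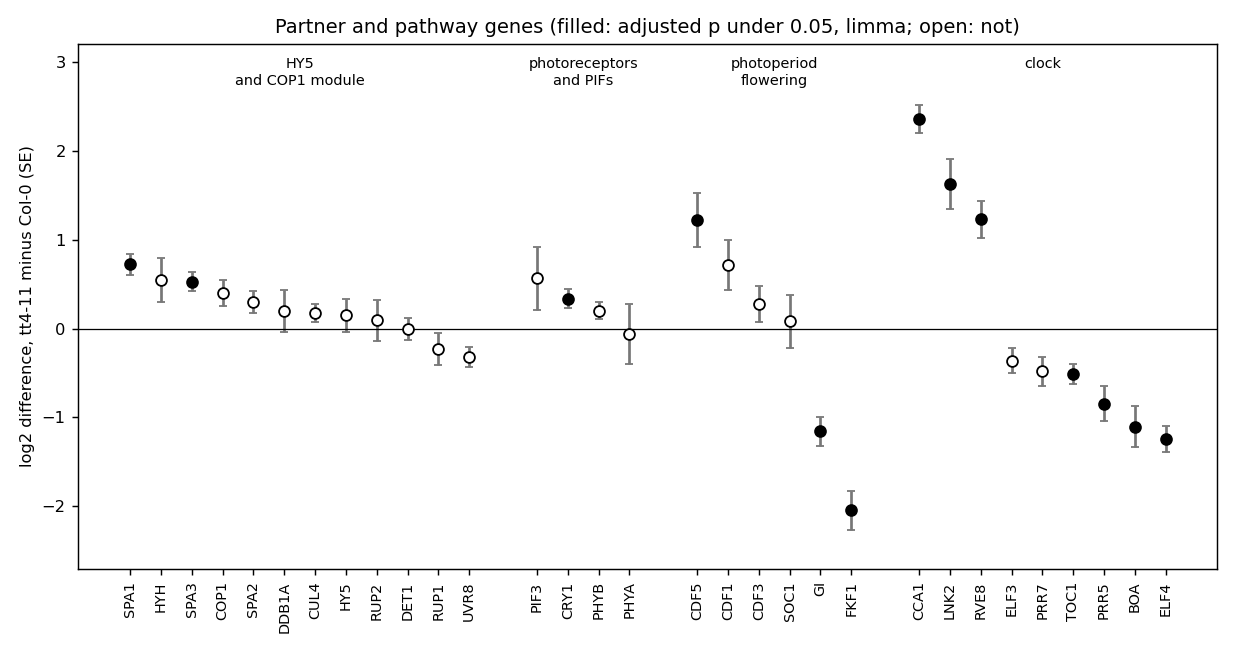
Log2 difference, tt4-11 minus Col-0, of log2(scaled reads + 1), with its SE, for 31 tested genes of 4 lists, sorted within each list; filled points have an adjusted p under 0.05 (limma with Benjamini-Hochberg adjustment), open points do not. The HY5 and COP1 module runs from -0.32 to 0.72, while photoperiod and clock genes spread from -2.04 to 2.35.

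For the 2 genes with the largest and the 2 with the smallest difference, the profile over the 7 libraries was compared with 13283 tested genes outside the family, by the root-mean-square distance of log2 values centred on each gene's mean. The nearest to COL2 was SAG29, at 0.30 on the log2 scale. SAG29 had 359, 406 and 571 scaled reads in tt4-11, against 98.4, 78.8, 115 and 127 in Col-0. The nearest to BBX16 was NDA1 (0.26). NDA1 had 219, 213 and 195 in tt4-11, against 94.6, 65.4, 78.6 and 65 in Col-0. The nearest to COL5 was NYE1 at 0.06, with 88.9, 94.8 and 129 in tt4-11, against 57.3, 58.6, 67.9 and 62 in Col-0. Like COL5, NYE1 was highest in tt4-11 replicate 4. The nearest to BBX25 was AT4G25290 (0.09), which like BBX25 was high in Col-0 replicate 3. These nearest genes were picked for likeness over the same 7 libraries. A shared high library largely follows from that pick, so nothing is read from it.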

How the data were processed

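The authors deposited 1 table of 23051 transcript models (1 repeated row dropped) with a value per library. Per the submitters' processing notes they used TopHat2, HISAT2, HTSeq and DESeq2; no source used here gives versions, roles or the genome build. The deposited signal of 6 libraries is a read count scaled to the seventh, Col-0 replicate 4, which holds whole read counts. Dividing each column by its step gave whole reads in 100% of values (tolerance 0.01). The authors' deposited log2 fold changes, from DESeq2 by their column names, are quoted once. The Wald score, its standard error score and the p-value columns that the authors deposited were not used.

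Models were added up per gene, and log2(sum + 1) was analysed. Genes passing filterByExpr (minimum count 10) entered limma 3.58.1 with the trend option, 3 tt4-11 against 4 Col-0 libraries, with Benjamini-Hochberg adjustment over 13301 genes, two-sided, called at 0.05. Steps were tested on simulated data. Alternatives were edgeR 4.0.16 and DESeq2 1.42.0 on recovered reads, TMM factors, no filter, 0.1 as the pseudocount, a stricter adjusted p (0.01), a replicate block, each library left out, the model with the most reads and removal of the trend with transcript length, which was chosen for the list counts after seeing the data. Positions, lengths, overlaps and upstream sequence come from the RefSeq annotation of TAIR10.1, which may not be the authors' build. Depth was 2021368 to 2205449 reads a library.

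Named are TT4, the 10 genes, other family genes (all called, and up to 4 with the lowest p), up to 4 called genes of each further list, and the nearest profile of 4 genes; COL3, COL4, BBX14, BBX27, BBX30, CO, HY5, COP1, SPA2 and UVR8 were added after their values were seen. The members and lists were chosen with earlier results of these data known.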

Additional observations from a re-analysis of the deposited data

Results flagged for a closer look

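In the 4 Col-0 libraries of 47 genes given above, a single library lay far from the other 3 in 7 genes: its gap to the nearest, divided by the range of the 4, exceeded Dixon's 95% critical value. Chance exceeds that value in about 1 of 20 groups. In 3 genes the library was replicate 1, which also stood apart in the principal components. It lay towards the tt4-11 level in these 3 genes, but on the first principal component it lay furthest from tt4-11. BBX28 had 59.8 to 68.4 scaled reads in tt4-11, against 62.1 in Col-0 replicate 1 and 33.0 to 35.6 in the other Col-0 libraries. LNK2 had 41.2 to 76.4 in tt4-11, against 31.5 in Col-0 replicate 1 and 15.4 to 17 in the others. CRY1 had 526 to 653 in tt4-11, against 491 in Col-0 replicate 1 and 433 to 442 in the others.

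The other 4 genes pointed to other libraries, and 3 of them rest on a few reads. BBX19, the 1 among the 10 B-box genes described, had 2.89 to 7.37 scaled reads in tt4-11, against 6 in Col-0 replicate 4 and 0 to 0.97 in the others. CO had 0 to 1.87 in tt4-11, against 0.97 in Col-0 replicate 3 and 0 in the others. AT3G02370, which overlaps COL2, had 1.87 to 5.78 in tt4-11, against 2.88 in Col-0 replicate 2 and 0.96 to 1 in the others. AT4G25290, the nearest profile to BBX25, had 140 to 143 in tt4-11, against 108 in Col-0 replicate 3 and 67.8 to 73.0 in the others. It was picked for its likeness to BBX25, which was also high in that library, so the chance rate above does not apply to it.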

How the results depend on the processing

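The log2 differences of the 7 B-box genes that could be fitted kept their sign in all 105 values computed under the alternatives. All moved by less than 1 SD of the replicates, but much of this was fixed in advance. Leaving out 1 library could not move a value by 1 SD, nor turn its sign where the groups lay apart. For these genes the fits with no filter and with the model with the most reads repeated the main values. The replicate block repeated those without Col-0 replicate 1, so no conclusion is drawn from this count. Over all genes, 708 passed at an adjusted p of 0.01 in place of 1811, and 896 to 1782 with 1 library left out, where tt4-11 replicate 2 gave 1135, replicate 3 gave 933 and replicate 4 gave 896. In the other B-box family, 1 gene passed with DESeq2, 1 with no filter and 1 at an adjusted p of 0.01, in place of 2, and 1 to 3 with 1 library left out. Of the photoreceptor and PIF genes, 0 passed with limma at a pseudocount of 0.1, at an adjusted p of 0.01 or with the length trend removed, and 0 to 1 with 1 library left out; 1 was under 0.05 unadjusted and edgeR and DESeq2 each called 1. Counts of the other 3 lists stayed within 1.5 times. BBX28 passed with the length trend removed (adjusted p = 0.0411). Same-numbered libraries hardly deviated together (correlations 0.06, 0.02 and 0.06 for replicates 2, 3 and 4). The same-numbered Col-0 library was the best match for tt4-11 replicates 2 and 4, while replicate 3 correlated best with Col-0 replicate 1 (0.10). All these correlations were small, and the numbers were not taken as pairs. With a replicate block 1665 genes passed over all and 3 in the other B-box family, BBX28 added (0.84, adjusted p = 0.00632). BBX19, BBX22 and BBX24 held too few reads for the fits with the filter.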
